A study of Mus musculus with 5 samples.

Results

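Ribosome-bound RNA of Drd2 neurons of the central amygdala (CeA) was examined for 6 genes of striatal dopamine signalling: the dopamine receptors Drd2 and Drd1a, the G protein subunits Gnal and Gng7, the phosphatase inhibitor Ppp1r1b and the phosphatase Ptpn5. The genes were chosen by name, and all 6 were found among the 15093 genes of the table, each under a name that occurs once. Drd1a is the older symbol of Drd1. The RNA was pulled down by translating ribosome affinity purification (TRAP) from adult Drd2-TRAP mice, in which Cre under the control of a Drd2 bacterial artificial chromosome releases a GFP-tagged ribosomal protein L10a from the Rosa26 locus. All 5 libraries carry both transgenes, and each is a pool of bilateral CeA punches from 3 animals. The 3 fear conditioned libraries (replicates 2, 3 and 4) came from mice given tone and shock pairings, and the 2 control libraries (replicates 6 and 7) are labelled Home Cage, whereas the study's text describes controls exposed to the tone alone. Brains were taken 2 h after the session, which the labels give as extinction and the study's text as conditioning. A cell that once expressed the Drd2-driven Cre keeps its tagged ribosomes, and striatal tissue next to the CeA holds cells of the same kind, so the Drd2 neurons are defined by the driver and the punch. The sex of the animals in each pool is not stated in the sources used here. Levels of Xist, an RNA of female cells given below, differed along the line of the groups.

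Dopamine acts in striatum-like neurons through receptor classes with opposite effects on cyclic AMP. The D1 receptor stimulates adenylyl cyclase, and in striatal projection neurons it does so through the alpha subunit G(olf), encoded by Gnal, which assembles with the gamma subunit encoded by Gng7. The D2 receptor signals through inhibitory G proteins and lowers cyclic AMP. Ppp1r1b encodes DARPP-32, which becomes an inhibitor of protein phosphatase 1 once protein kinase A has phosphorylated it, and Ptpn5 encodes STEP, a tyrosine phosphatase that acts on ERK and on Fyn and is itself restrained by protein kinase A. In the striatum the receptors mark largely separate projection neurons, whereas Gnal, Gng7, Ppp1r1b and Ptpn5 are shared by both kinds.

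The promoters of both receptors and of Gng7 are shown. Among the genes whose promoter windows were used here, Drd1a and then Gng7 ran most nearly parallel to Drd2 across libraries. They ranked 2 and 79 of 9275 genes, as measured below. Whether the promoters have a part in this was not tested. RefSeq promoter windows (GRCm38.p6) were used for 4 of the 6 genes, Drd2, Drd1a, Gng7 and Ptpn5, in 7 windows. Each ran from 250 bases before to 50 bases after an annotated start. No window of Gnal or Ppp1r1b was used, which does not mean that RefSeq holds none. Capitals mark matches to GGGCGG (the GC box) or CCAAT on either strand, and all sequences run 5′ to 3′ on the strand of the gene. The Drd2 window lies at chr9:49340153-49340452 on the plus strand, the Drd1a windows at chr13:54055609-54055908 and chr13:54054731-54055030 on the minus strand, and the upstream Gng7 window at chr10:81014876-81015175 on the minus strand.
Drd2: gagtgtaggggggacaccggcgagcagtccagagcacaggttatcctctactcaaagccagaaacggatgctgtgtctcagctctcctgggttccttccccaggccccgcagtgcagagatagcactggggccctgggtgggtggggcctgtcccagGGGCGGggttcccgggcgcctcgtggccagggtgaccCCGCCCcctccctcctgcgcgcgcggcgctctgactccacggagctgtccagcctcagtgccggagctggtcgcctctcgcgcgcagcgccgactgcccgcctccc
Drd1a, upstream start: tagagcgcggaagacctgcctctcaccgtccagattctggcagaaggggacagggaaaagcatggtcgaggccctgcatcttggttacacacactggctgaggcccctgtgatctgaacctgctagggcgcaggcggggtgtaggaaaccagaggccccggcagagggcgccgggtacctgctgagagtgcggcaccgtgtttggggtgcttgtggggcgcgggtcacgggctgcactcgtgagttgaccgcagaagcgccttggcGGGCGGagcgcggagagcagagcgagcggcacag
Drd1a, downstream start: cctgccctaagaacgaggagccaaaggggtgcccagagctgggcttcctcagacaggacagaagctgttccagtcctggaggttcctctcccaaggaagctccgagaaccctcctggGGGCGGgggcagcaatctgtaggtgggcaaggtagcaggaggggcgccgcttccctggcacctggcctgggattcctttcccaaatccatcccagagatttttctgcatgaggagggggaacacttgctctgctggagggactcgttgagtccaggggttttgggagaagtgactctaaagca
Gng7, upstream start: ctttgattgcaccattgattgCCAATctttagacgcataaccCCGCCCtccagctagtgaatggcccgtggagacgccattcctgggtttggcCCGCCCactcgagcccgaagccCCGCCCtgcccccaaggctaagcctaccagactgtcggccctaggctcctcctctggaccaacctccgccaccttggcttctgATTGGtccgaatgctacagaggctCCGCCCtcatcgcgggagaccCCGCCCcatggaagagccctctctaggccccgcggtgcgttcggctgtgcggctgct

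Drd2 held 2 GC boxes and no CCAAT, and each Drd1a window held 1 GC box and no CCAAT. The upstream Gng7 window held 5 GC boxes and 2 CCAAT matches, while its downstream window held 0 of either. Of the 2 Ptpn5 windows, 1 held 5 GC boxes, of which 2 overlap, and the other held 1 CCAAT. A GC box was present in 35.7% of all 32851 windows of this length and CCAAT in 37.4%, so these matches are common. None of the 7 windows held TATAAA (13.6% of all windows), the cyclic AMP response element TGACGTCA (1.79%) or the Egr1 site GCGTGGGCG (0.612%), all searched on both strands, which says only that these letters are not in the windows.

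Levels were given in CPM, read counts scaled by the authors to an effective library size. The 5 libraries held between 19605318 and 27937520 reads on genes, recovered from the deposited values, and the 6 genes held between 454 and 84169 reads in a library. With these depths the counting error was at most 4.69%, for Drd1a in control replicate 6, and it was well under the spread between libraries. Levels of different genes were compared per kb of the deposited gene length. On this scale Ppp1r1b was the highest of the 6 genes, with 1184 ± 53.3 CPM per kb (SD, n = 3) after fear conditioning and 597 ± 323 (SD, n = 2) in controls. Ptpn5 followed with 287 ± 50.9 and 144 ± 35.4 CPM per kb, and Gng7 with 269 ± 68.7 and 136 ± 39.2. These neighbours were not separated, since Ptpn5 was above Gng7 in 4 of 5 libraries and the ratio ran from 0.726 to 1.56. Drd2 had 165 ± 47.4 and 76.8 ± 37.1 CPM per kb, below Gng7 in all 5 libraries, and Gnal had 90.8 ± 26.5 and 55.9 ± 3.07. Drd2 was above Gnal in 4 of 5 libraries, so this order did not hold throughout. Drd1a was the lowest by far, with 15.2 ± 7.50 and 6.07 ± 2.50 CPM per kb, at least 4.19-fold below Gnal in every library.

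**Figure D1:**
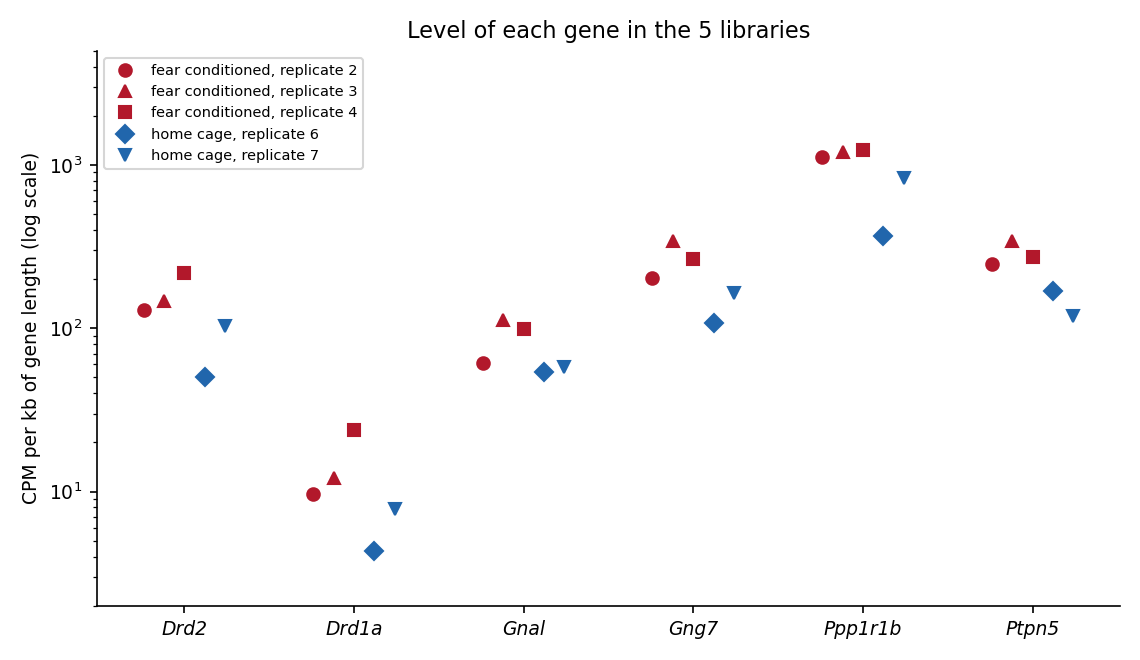
Level of the 6 genes in each library, in CPM per kb of the deposited gene length on a log axis, with 1 point per library (red, fear conditioned; blue, home cage). For every gene the 3 red points lie above both blue points, and Drd1a lies lowest in every library.

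Among all listed genes of a library, Ppp1r1b ranked above at least 99.6% in CPM, Gng7 above at least 99.2%, Ptpn5 above at least 98.9% and Gnal above at least 97.5%. Drd2 ranked above between 88.7% and 98.4% of the genes and Drd1a above between 44.6% and 81.7%. The genes shared by both kinds of striatal projection neuron therefore ranked high in CPM. These ranks are not per kb of gene length, so they do not order transcripts by abundance.

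For the receptors, Drd2 (ENSMUSG00000032259) had 326, 375 and 555 CPM in fear conditioned replicates 2, 3 and 4 and 128 and 262 CPM in control replicates 6 and 7. All 3 fear conditioned libraries were above both controls, the nearest pair by a ratio of 1.25, and control replicate 7 had 2.04 times the level of control replicate 6. The log2 fold change on log2(CPM + 1) was 1.15 (standard error 0.38, 95% interval 0.22 to 2.08), and limma gave an adjusted p of 0.239 (Benjamini-Hochberg over 13560 genes). Drd1a (ENSMUSG00000021478) had 33.9, 42.8 and 83.5 CPM after fear conditioning, against 15.2 and 27.6 CPM in controls. Fear conditioned replicate 4 stood highest for both receptors and control replicate 6 lowest. The log2 fold change of Drd1a was 1.23 (standard error 0.50, 95% interval 0.03 to 2.44), with an adjusted p of 0.291 from the same limma fit. Neither receptor passed the test, although the groups did not overlap.

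Of the G protein subunits, Gng7 (ENSMUSG00000048240) had 1401, 2347 and 1825 CPM after fear conditioning, against 746 and 1128 CPM in controls. Its libraries did not overlap between groups, and fear conditioned replicate 3, not replicate 4, was the highest. The log2 fold change of Gng7 was 0.99 (standard error 0.33, 95% interval 0.18 to 1.79, adjusted p = 0.241 in the limma fit). Gnal (ENSMUSG00000024524) had 483, 886 and 785 CPM after fear conditioning, against 425 and 459 CPM in controls. Here the groups came closest, with fear conditioned replicate 2 only 1.05 times control replicate 7, and the controls were nearly equal (442 ± 24.2 CPM, SD, n = 2). The log2 fold change of Gnal was 0.65 (standard error 0.31, 95% interval -0.096 to 1.40, adjusted p = 0.346 in the limma fit), the smallest of the 6 genes and the only one whose interval included 0.

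Downstream of the receptors, Ppp1r1b (ENSMUSG00000061718) had 3283, 3505 and 3583 CPM after fear conditioning, against 1076 and 2411 CPM in controls. The fear conditioned libraries were tight, with a coefficient of variation of 4.50%, whereas that of the controls was 54.1%. The log2 fold change of Ppp1r1b was 1.10 (standard error 0.39, 95% interval 0.14 to 2.06, adjusted p = 0.255 in the limma fit). Ptpn5 (ENSMUSG00000030854) had 1559, 2184 and 1729.9 CPM after fear conditioning, against 1072 and 754 CPM in controls. It was the only gene of the 6 with a lower level in control replicate 7 than in replicate 6, at a ratio of 0.703, and it had the widest gap between the groups, with the lowest fear conditioned library 1.46 times the highest control. The log2 fold change of Ptpn5 was 1.01 (standard error 0.29, 95% interval 0.31 to 1.70, adjusted p = 0.217 in the limma fit), the smallest adjusted p of the 6 genes.

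**Figure D2:**
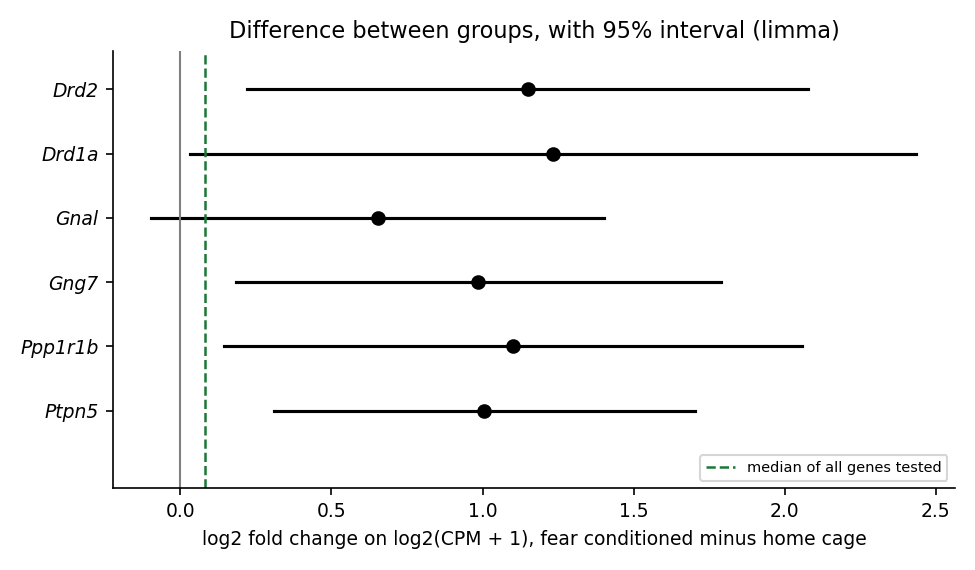
Log2 fold change of each gene on log2(CPM + 1), fear conditioned minus home cage (points), with the 95% interval from limma (bars) and the median of all 13560 genes tested (dashed line). The 6 values lie between 0.65 and 1.23, to the right of the median of all genes at 0.083, and the interval of Gnal includes 0.

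All 6 genes were higher in every fear conditioned library than in either control, a pattern that 20.2% of the 13560 genes tested showed. The controls also listed more genes at 0, 976 in replicate 6 and 2681 in replicate 7, against 349, 263 and 159 in fear conditioned replicates 2, 3 and 4, and the part of this in the results was not tested. The 6 genes had a median log2 fold change of 1.05, against 0.083 over all genes tested. All 6 exceeded 0.5, as did 31.4% of all genes. With limma 0 of the 6 genes and 0 of the 13560 genes tested (0%) reached both cutoffs of a call, an adjusted p under 0.05 and a log2 fold change beyond 0.5 in either direction. At an unadjusted p under 0.05 there were 5 of the 6, all but Gnal, against 9.49% of all genes that were higher at that level. The exact permutation test over libraries, two-sided, gave p = 0.1 for Drd2, Gng7, Ppp1r1b and Ptpn5, the smallest p that 3 libraries against 2 allow. For Drd1a and Gnal the exact permutation test gave p = 0.2, since setting the 2 highest libraries against the other 3 gave at least as large a difference. The 6 genes come from the same libraries and were chosen for their shared pathway, so their common direction is not 6 independent observations. Fewer cells of a type and less RNA per cell cannot be told apart in pooled tissue.

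On the recovered reads, edgeR's quasi-likelihood test called 0 of the 6 genes and 0% of all genes, with adjusted p values between 0.223 and 0.373 for the 6 genes (edgeR with Benjamini-Hochberg adjustment) and 2039 genes at an unadjusted p under 0.05. DESeq2 called Ptpn5 higher (log2 fold change 0.98, adjusted p = 0.0104), when it called 3.69% of all genes higher, and it gave the other 5 genes adjusted p values from 0.0711 for Gng7 to 0.250 for Gnal (DESeq2). The controls decided several calls. Without control replicate 7 the log2 fold changes were 1.66 for Drd2, 1.65 for Drd1a, 1.68 for Ppp1r1b and 1.28 for Gng7, and limma called all 4 of them, together with 10.8% of all genes that were called higher. Without control replicate 6 limma called only Ptpn5 of the 6, with a log2 fold change of 1.26, together with 35.4% of all genes that were called higher. In these fits the lone control library is assumed to vary like the fear conditioned libraries, and many genes pass.

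Ratios to Drd2 within a library, which do not depend on how libraries were scaled, were more even than the levels for Drd1a, Ppp1r1b and Gng7, but not for Gnal and Ptpn5. The ratio of Drd1a to Drd2 was 0.104, 0.114 and 0.151 in the fear conditioned libraries, against 0.118 and 0.106 for the controls, a span of 1.45-fold over all 5 libraries. Per kb of gene length Drd2 was between 9.22 and 13.3 times as high as Drd1a. The log2 ratio of Drd1a to Drd2 differed by 0.12 between groups, less than the SD of 0.28 among the fear conditioned libraries (exact permutation test, two-sided, p = 0.9).

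The ratio of Ppp1r1b to Drd2 was 10.1, 9.36 and 6.46 after fear conditioning, against 8.38 and 9.21 in controls, with a span of 1.56-fold. Fear conditioned replicate 4, with the most Drd2, had the lowest ratio, and the group difference of the log2 ratio was -0.053 (exact permutation test, two-sided, p = 1.0). Gng7 stood at 4.30, 6.26 and 3.29 times Drd2 after fear conditioning and at 5.81 and 4.31 times in controls. Its log2 ratio differed by -0.17 between groups, within the spread of both (exact permutation test, two-sided, p = 0.7).

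Gnal and Ptpn5 ran less evenly with Drd2. Gnal stood at 1.48, 2.36 and 1.42 times Drd2 after fear conditioning and at 3.31 and 1.76 times in controls, and the log2 ratio differed by -0.50, in the direction of less Gnal per Drd2 after fear conditioning, without passing (exact permutation test, two-sided, p = 0.4). The ratio of Ptpn5 to Drd2 was 4.78, 5.83 and 3.12 after fear conditioning and 8.35 and 2.88 in controls. The controls thus held both the highest and the lowest value for Ptpn5, and the group difference of the log2 ratio was -0.15 (exact permutation test, two-sided, p = 1.0). In a limma fit of the ratio to Drd2 over 13559 genes the median difference of all genes was -1.07. Each difference in this fit is the gene's own log2 fold change minus that of Drd2. The median and the 5 differences therefore restate the group differences given above and add nothing to them. The 5 genes had differences between -0.50 and 0.085, 95% intervals that all included 0, from -1.69 to 0.70 for Gnal and from -1.53 to 1.24 for Ptpn5, and adjusted p values between 0.553 and 0.963 (limma with Benjamini-Hochberg adjustment). None of the 5 ratios was called, and 0.0221% of all genes were, the 3 genes Enpp2, Ttr and Xist, all lower relative to Drd2 after fear conditioning. A change of the ratios by up to these intervals was not detectable with 3 libraries against 2.

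**Figure D3:**
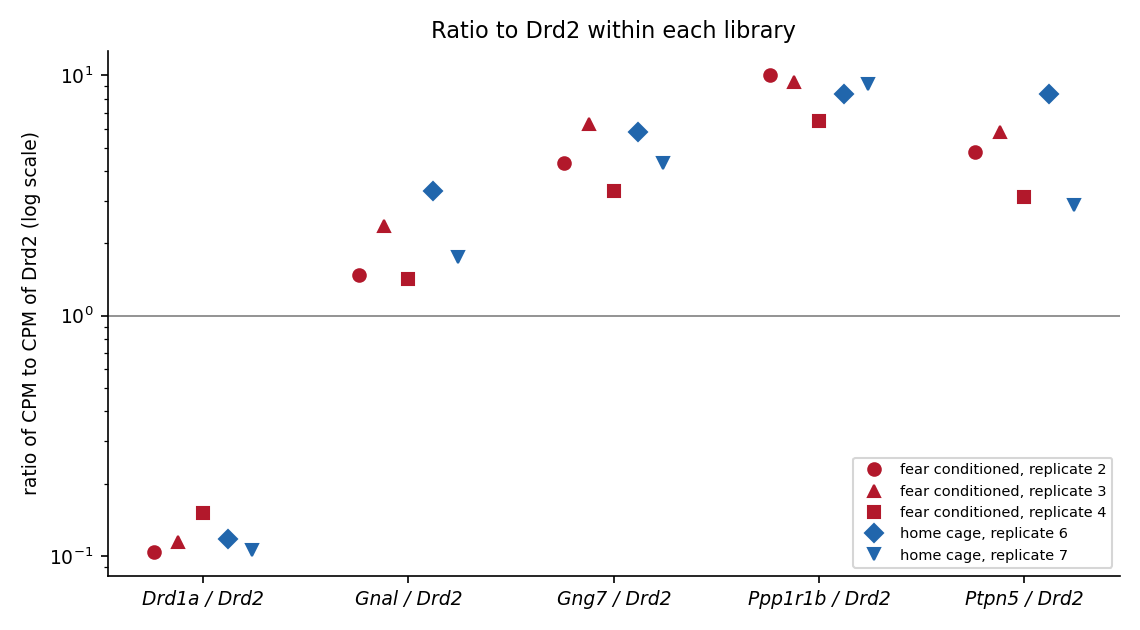
Ratio of the CPM of 5 genes to the CPM of Drd2 in the same library, on a log axis, with 1 point per library (red, fear conditioned; blue, home cage) and a line at equal CPM. Red and blue points overlap for every gene, and the points lie closest for Drd1a, between 0.104 and 0.151.

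Over the 5 libraries the gene whose level ran second most nearly parallel to Drd2 was Drd1a. Likeness was measured as the SD of the log2 ratio to Drd2 over the 5 libraries, among 9275 other genes with a mean of at least 10 CPM, and the median gene had an SD of 0.95. The 5 most alike were 2810032G03Rik, Drd1a, Zfp280d, Tmem185b and Zfp385a. Ppp1r1b ranked 7, Gng7 ranked 79, Gnal ranked 377 and Ptpn5 ranked 1141 of the 9275 genes. Seen from Drd1a, the most alike of all genes was Drd2, followed by Il17rc, Rgs7bp and Gpr6. These ranks describe 5 libraries in 2 conditions, in which any gene with the same order of libraries scores well.

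Pairs of functional partners were compared in the same way. Gnal and Gng7, whose proteins form part of the same G protein, stood at a ratio of 0.345, 0.377 and 0.430 after fear conditioning, against 0.570 and 0.407 in controls, with a span of 1.65-fold. Gng7 ranked 188 in likeness to Gnal, and Gnal ranked 93 in likeness to Gng7. Ppp1r1b and Ptpn5, both targets of protein kinase A, stood at 2.11, 1.60 and 2.07 after fear conditioning, against 1.00 and 3.20 in controls, with a span of 3.19-fold set by the controls alone.

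The wider pathway was described with 11 lists of 109 genes, of which 102 could be tested. With limma 0 of the 102 were called in either direction. At an unadjusted p under 0.05, 20 were higher (9.49% of all genes were) and 6 were lower (7.32% of all genes were). Without overlap between groups 35 were higher, against 20.2% of all genes, and 18 were lower, against 16.1% of all genes. These shares over all genes also apply to the counts of each list below, some of which lie near them. The median log2 fold change of the 102 was 0.27. DESeq2 called 13 of them higher and 4 lower, when it called 3.69% of all genes higher and 3.81% lower.

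Of the remaining dopamine receptors, Drd3 and Drd4 are not analysed here, and Drd5 was read 18, 9 and 68 times in the fear conditioned libraries, against 0 reads in each control, below the filter. Its 5 values put it far under Drd1a in every library. Among genes of dopamine synthesis and storage 3 were tested. Ddc, which makes dopamine from L-DOPA, stood at a log2 fold change of -1.40 (standard error 0.61), and Slc18a2, the vesicular monoamine transporter, had 0.70 (standard error 0.56). Th, the rate-limiting enzyme of dopamine synthesis, had 6.92, 6.62 and 9.93 CPM after fear conditioning, against 29.8 and 0.0527 CPM in controls, where a single library held nearly all of it.

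On the stimulatory side of the cyclic AMP pathway, 2 of 11 genes were higher without overlap and 3 lower, with a median log2 fold change of 0.12. The extremes were Adcy3, an adenylyl cyclase, at 1.10 (standard error 0.98), and Gng2, another gamma subunit, at -1.60 (standard error 0.32). Adcy3 had 14.1, 31.2 and 28.0 CPM after fear conditioning, against 34.0 and 2.64 CPM in controls. Its groups overlapped, and control replicate 6 was the highest library. Gng2 had 83.9, 91.4 and 55.9 CPM after fear conditioning, against 283 and 189 CPM in controls, the opposite order to Gng7. Adcy5, the main adenylyl cyclase of striatal projection neurons, had 558, 769 and 863 CPM after fear conditioning, against 396 and 686 CPM in controls, with overlap. Ric8b, a chaperone of G(olf), had 131, 209.9 and 162 CPM after fear conditioning, against 109 and 108 CPM in controls, for a log2 fold change of 0.60 (standard error 0.26), close to that of Gnal. Adcy5 and Ric8b were picked out after their values were seen.

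On the inhibitory side, 4 of 17 genes were higher without overlap and 6 lower, with a median log2 fold change of -0.11. The 4 higher genes were Rgs9, Rgs8, Rgs7bp and Gnb5, while Rgs4 overlapped between groups, and all but Rgs9 are named here after their values were seen. Rgs9, the striatal regulator of G protein signalling that acts with Gnb5, had 385, 562 and 476 CPM after fear conditioning, against 112 and 259 CPM in controls, and its log2 fold change was 1.46 (standard error 0.39). Gnai1, an inhibitory alpha subunit, had 129, 133 and 109 CPM after fear conditioning, against 296 and 195 CPM in controls, for a log2 fold change of -0.95 (standard error 0.26), the lowest of the list.

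Among the kinases and phosphatases that act on DARPP-32, 8 of 22 genes were higher without overlap and 2 lower, with a median of 0.18. Ppp1cc, a catalytic subunit of protein phosphatase 1, had the highest log2 fold change at 1.78 (standard error 0.34), and Cdk5r1, an activator of Cdk5, the lowest at -1.38 (standard error 0.61). Cdk5r1 had 102, 96.1 and 118 CPM after fear conditioning, against 128 and 596 CPM in controls, so control replicate 7 alone stood far from the rest. Ppp1cc shares close sequence with Ppp1ca and Ppp1cb, between which reads could be split. In the list of DARPP-32 relatives and phosphatase 1 inhibitors 4 of 7 genes were higher without overlap and 0 lower. Ppp1r1a, phosphatase inhibitor 1 and the closest relative of Ppp1r1b by function, had 452, 402 and 359 CPM after fear conditioning, against 206 and 214 CPM in controls, with a log2 fold change of 0.94 (standard error 0.21) near that of Ppp1r1b. Ppp1r9a, which anchors the phosphatase to actin, was lowest at -0.39 (standard error 0.38).

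Of 6 striatal phosphodiesterases, which break down cyclic nucleotides, 3 were higher without overlap and 1 was lower. Pde1b, a calmodulin-dependent enzyme of striatal projection neurons, had 1102, 1693 and 1478 CPM after fear conditioning, against 634 and 819 CPM in controls, for a log2 fold change of 0.96 (standard error 0.28). Pde1c lay at the other end with -1.11 (standard error 0.42). Of 9 substrates and relatives of STEP 4 were lower without overlap and 2 higher, with a median of -0.46, and 0 were lower at an unadjusted p under 0.05 in limma or called lower by DESeq2. Ptprr, a related phosphatase, was lowest at -0.66 (standard error 0.42). Ptpn7, another phosphatase of ERK, was highest at 3.67 (standard error 0.64), from 1.14 and 0.105 CPM in controls to 11.6, 26.6 and 20.7 after fear conditioning.

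**Figure D4:**
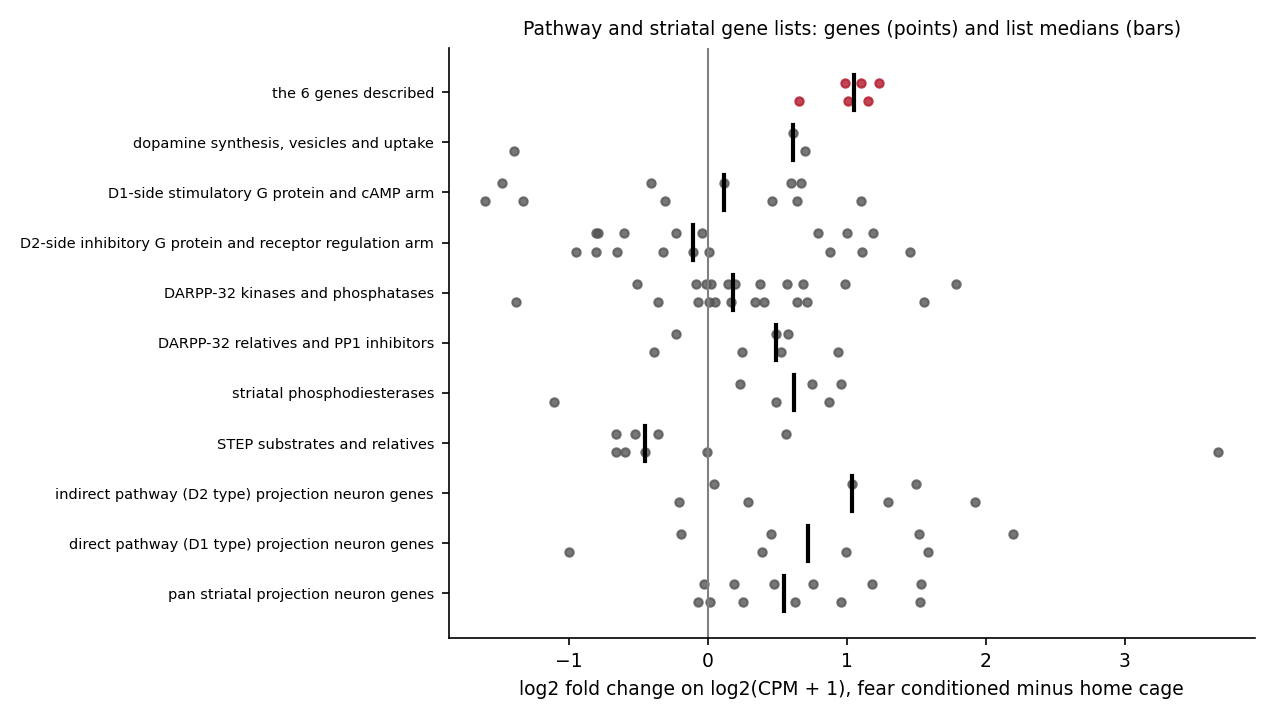
Log2 fold change on log2(CPM + 1), fear conditioned minus home cage, of every tested gene (points) of 10 gene lists and of the 6 genes described (red), with the median of each list as a bar. The 6 genes lie between 0.65 and 1.23, while most lists spread on both sides of 0.

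Genes that mark the kinds of striatal projection neuron were compared with the receptors. Of 7 tested genes of indirect pathway neurons, the kind that carries Drd2, 3 were higher without overlap and 0 lower, with a median log2 fold change of 1.03. The extremes were the adenosine receptor gene Adora2a at 1.92 (standard error 0.47) and the kainate receptor gene Grik3 at -0.21 (standard error 0.51). Of 8 genes of direct pathway neurons, the kind that carries Drd1a, 2 were higher without overlap and 1 lower, with a median of 0.72. Isl1, a transcription factor of these neurons, had 16.3, 10.1 and 17.7 CPM after fear conditioning, against 5.24 and 0.791 CPM in controls, for a log2 fold change of 2.20 (standard error 0.72). Tac1, the precursor of substance P and picked out after its values were seen, had 109.7, 87.0 and 203 CPM after fear conditioning, against 50.9 and 36.0 CPM in controls. Of 12 genes of both kinds 6 were higher without overlap and 0 lower, from Rxrg at 1.53 (standard error 0.32) down to Sh3rf2 at -0.070 (standard error 0.42). The difference between indirect and direct pathway genes was not tested, and the ratio of Drd1a to Drd2 showed none beyond the spread between libraries.

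Markers of other cell types also differed in level between the groups, and their part in the results on the 6 genes was not tested. Without overlap, 16.1% of all genes were lower in the fear conditioned libraries and 20.2% higher. Of 6 choroid plexus markers 3 were lower without overlap. The summed level of these markers was between 57.7 and 111 CPM after fear conditioning and between 1015 and 1415 in controls. Most of the control sum was Ttr (transthyretin), at 913 and 1319.6 CPM in controls, against 0.522, 22.1 and 0.348 CPM after fear conditioning. Kcnj13, Folr1 and Kcne2 were at 0 in fear conditioned replicate 2. Folr1 and Kcne2 overlapped between groups. They had 11.5 and 10.5 CPM in control replicate 6, but 0.0527 CPM each in control replicate 7. Pallial glutamatergic neuron markers were lower without overlap in 4 of 7 and higher in 1, with sums of 55.3 to 235 CPM after fear conditioning and 384 to 466 in controls. Astrocyte markers were lower in 3 of 5, with sums of 206 to 247 CPM and 473 to 562, respectively. For oligodendrocyte markers 3 of 6 were lower, and the sums overlapped between groups (1062 to 2409 CPM and 2341 to 4964). Markers of central amygdala neurons, the tissue named in the labels, had sums of 155 to 291 CPM after fear conditioning. In controls the sums were 286 to 489 CPM, and 3 of 6 genes were lower after fear conditioning without overlap. Sst and Nts made up most of each sum, and not every marker was present in every library. Tac2 was at 0 and Crh at 1.11 CPM in control replicate 7. Microglial marker sums overlapped (37.8 to 67.1 CPM after fear conditioning, 59.9 to 74.8 in controls), with 1 of 5 genes lower and 1 higher. Endothelial marker sums were 9.95 to 30.6 CPM after fear conditioning and 32.5 to 61.5 in controls, with 1 of 4 genes lower and 1 higher. The lower gene, Slco1c1, made up most of the sum in control replicate 7, at 51.0 CPM, and the higher gene was Cldn5. Xist, expressed from the inactive X chromosome of female cells, was at 0, 0.125 and 0.199 CPM in the fear conditioned libraries. In the controls it was at 22.2 and 93.5 CPM, so the libraries also differed in this RNA along the line of the groups. The sex of the pools therefore cannot be told apart from the group here. Marker sums in the controls thus lay above those of the fear conditioned libraries for choroid plexus, pallial neurons, astrocytes and endothelial cells, the opposite of the order of the 6 genes.

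**Figure D5:**
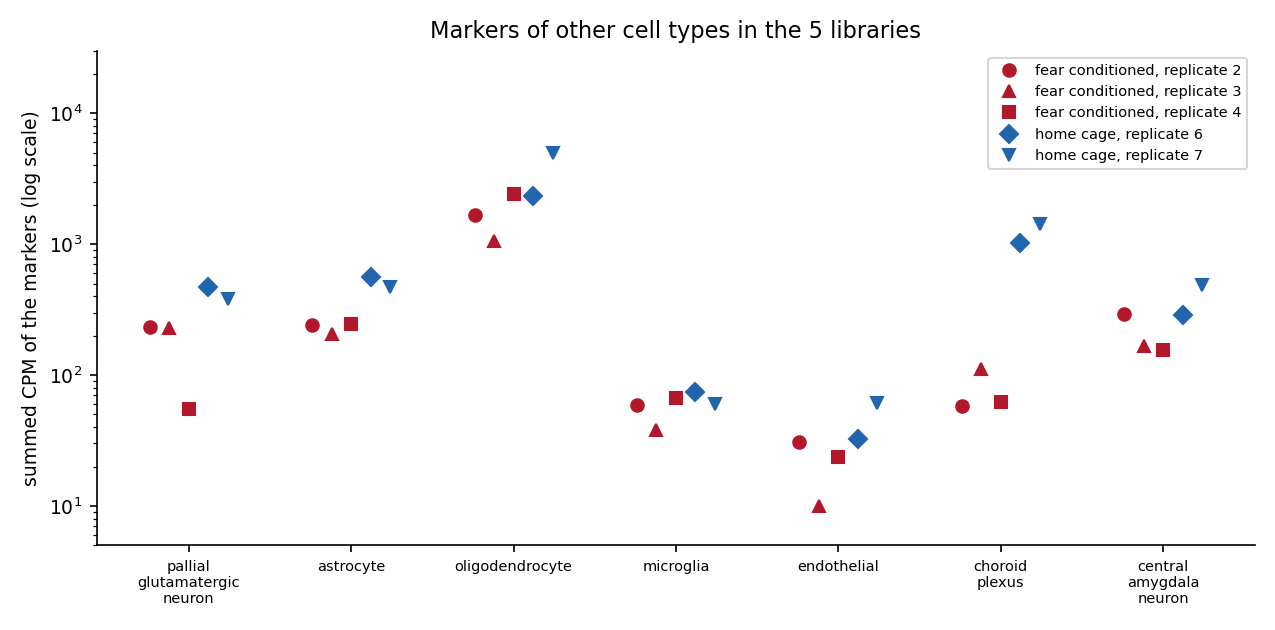
Summed CPM of the markers of 7 other cell types in each library, on a log axis (red, fear conditioned; blue, home cage). The blue points lie above all red points for pallial glutamatergic neurons, astrocytes, endothelial cells and choroid plexus, and the groups overlap for oligodendrocytes, microglia and central amygdala neurons.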

How the data were processed

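TRAP libraries were made by the authors from 1 ng of RNA . The software is named as Tuxedo DESeq, the submitters' processing notes list DESeq and the build mm8, and the aligner, the counting tool and its use of strand are not given in the sources used here. Deposited values are a signal per gene, normalized by the authors to CPM of an effective library size, with the length of each gene. The library sums lie between 932938 and 1042030. All values (100%) were whole multiples of 1 read within 0.01, and reads were recovered from them.

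Groups were taken from the labels. The groups were set against each other in limma 3.58.1 (lmFit, eBayes with a trend) on log2(CPM + 1) for genes with a mean of at least 1 CPM, two-sided, with Benjamini-Hochberg adjustment, and called at an adjusted p under 0.05 with an absolute log2 fold change over 0.5. The same fit was made on the log2 ratio to Drd2. Recovered reads were tested with edgeR 4.0.16 and DESeq2 1.42.0. Single values were compared by an exact permutation test, which has 10 arrangements. All fits were run on simulated counts with changes much larger than those of the 6 genes. This check does not show how well changes of their size are found. The 6 genes and the gene lists were chosen with earlier results of these data known. The genes named are the 6, the highest and the lowest of each pathway list, every list gene called, the 5 most parallel to Drd2, and those marked as picked out later. Of the genes this rule names, 1 is not reported here. List genes were matched by name or RefSeq synonym (GRCm38.p6, names only). Alternatives were a pseudocount of 0.1, other filters, quantile normalization, rescaled sums, sample weights, and each library left out. Nothing says that the pools share no litter or cage, and p-values cover the spread between these pools. Counting errors treat reads as molecules, which amplification makes too optimistic. Fits ran in R 4.3.3 and summaries in Python 3.11.15 with pandas 2.3.3.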

Additional observations from a re-analysis of the deposited data

How the results depend on the processing

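No paired analysis was possible because the groups share no replicate numbers. All 6 genes kept a higher level after fear conditioning under each of 13 alternatives, and the calls of limma depended on the libraries. Leaving out 1 library at a time, the log2 fold change ran from 0.64 to 1.66 for Drd2, 0.82 to 1.65 for Drd1a, 0.52 to 1.68 for Ppp1r1b, 0.48 to 0.91 for Gnal, 0.69 to 1.28 for Gng7 and 0.75 to 1.26 for Ptpn5. The number of the 6 genes called ran from 0 to 4, of all genes from 0 to 7956, and of list genes from 0 to 42. List genes that did not overlap numbered 35 to 54 higher and 19 to 35 lower. With fewer libraries non-overlap is easier to reach. The share over all genes was not computed for these settings, so these counts have nothing to be set against. Group differences of the log2 ratio to Drd2 had no stable sign: from -0.064 to 0.19 for Drd1a, -0.17 to 0.15 for Ppp1r1b, -0.41 to 0.055 for Gng7, -0.91 to 0.62 for Ptpn5, and -0.95 to -0.041 for Gnal, which kept its sign. The number of genes called on the ratio ran from 0 to 8720. DESeq2 called 1017 genes, 17 list genes and 1 of the 6 genes (Ptpn5, 0.98). With a pseudocount of 0.1 no gene (0) was called on the ratio, and 1862 were among genes with at least 1 CPM in every library; the cause was not tested. With sample weights, which gave the controls little weight, adjusted p values of the 6 genes were between 0.909 and 0.925 (limma). Of 5 neighbour pairs in the order of levels, 3 held in every library per kb and 4 without division by length. No outlier test was made with 3 and 2 libraries a group.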

Other observations

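Gnas, which encodes the stimulatory alpha subunit that G(olf) replaces in striatal projection neurons, had 17.8, 7.66 and 10.1 CPM after fear conditioning, against 19.0 and 46.0 CPM in controls, far below Gnal in every library. Its locus holds several overlapping transcripts, and how reads on them were counted is not given in the sources used here, so this level is uncertain. The group order of Gnas was the reverse of that of Gnal, at a log2 fold change of -1.33 (standard error 0.59), and limma gave an adjusted p of 0.321 (Benjamini-Hochberg).

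The genes most parallel to each of the other members differed. For Ppp1r1b they were Tesc, Ngef, 2810032G03Rik, Nexn and Ubqln4, and for Gnal they were Dmtf1, Rerg, Rragd, Rasgef1b and Homer1. Gng7 was closest to Gpr12, Rarb, Ndfip2, Ddx20 and Akt2, and Ptpn5 to AW209491, Traf7, Mapkap1, Ptcd1 and Chn1. No gene appeared among the 5 closest of both Gnal and Ppp1r1b, and these ranks rest on 5 libraries.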
